A study of Mus musculus with 12 samples.

Results

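The genes of cholesterol and fatty acid synthesis were examined as 35 rows, picked by gene symbol, of a table of 20614 genes. They comprised 18 enzymes of the sterol pathway, 5 genes of the sterol regulatory element-binding proteins (SREBPs) and 12 enzymes that make, elongate or desaturate fatty acids. The 5, named SREBP regulators below, were Srebf1 and Srebf2, which encode SREBPs, and Scap, Insig1 and Insig2, which control them. RNA came from midbrain astrocytes of male mice aged 12 to 14 months, from wild-type Cd38+/+ mice (3 libraries), heterozygous Cd38+/- mice (3 libraries) and null Cd38-/- mice (6 libraries), all bred on C57BL/6J. Striatum, thalamus and substantia nigra were dissected, and astrocytes were taken with ACSA-2 beads after other cell types had been removed. The mutant allele disrupts Cd38, which encodes an NAD-consuming ectoenzyme, in every cell of the animal and not in astrocytes alone. The labels do not say that each library was a separate animal, so the tests measured the spread between libraries.

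Cholesterol is made from acetyl-CoA through mevalonate and squalene, and fatty acids are made from the same acetyl-CoA by carboxylation and repeated condensation. Genes of both branches are switched on by SREBPs, which leave the endoplasmic reticulum with their escort Scap when sterols are scarce and are held there by the Insig proteins when sterols are plentiful. In the adult brain cholesterol is made locally, and astrocytes supply it to neurons on lipoprotein particles.

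Expression was given as TPM, a transcript level corrected for length and scaled to a fixed library sum. The number of genes above 0 TPM was 13160 to 13516 in the Cd38+/+ libraries, 16160 to 16327 in the Cd38+/- libraries and 15920 to 17906 in the Cd38-/- libraries, so the Cd38+/+ libraries stood apart from all others. Cd38 itself was at 148.64, 120.04 and 104.88 TPM in Cd38+/+, at 90.8, 90.7 and 90.36 TPM in Cd38+/-, and at 8.54 to 21.86 TPM (median 15.67) in Cd38-/-, in the order of the labels and without overlap. Astrocyte markers were abundant, with Aldoc at 3548.6 TPM or more in every library. Summed over 10 genes they reached 11204 to 16303 TPM in Cd38+/+, 16212 to 18338 TPM in Cd38+/- and 12126 to 16399 TPM in Cd38-/-. Markers of oligodendrocytes, which also make much cholesterol, summed over 12 genes to 1351 to 7259, 3137 to 11089 and 3212 to 17859 TPM in the same order. Markers of ependymal cells and choroid plexus, which line the ventricles and make cerebrospinal fluid, summed over 8 genes to 2813 to 4860, 2953 to 10048 and 3448 to 6232 TPM. In Cd38-/- against Cd38+/+, 3 of these 8 were called higher (limma on log2(TPM + 1), with q under 0.05 by Storey's method and a fold change of 1.2 or more) and 6 were higher at an unadjusted p under 0.05, beside 6.42% and 17.6% of all genes tested. Ttr, the transthyretin of the choroid plexus, was at 0 to 222.92 TPM in Cd38+/+, at 60.4 to 6537.05 TPM in Cd38+/- and at 99.58 to 1641.56 TPM in Cd38-/-. In Cd38-/- against Cd38+/-, 5 of the 8 had a log2 fold change above 0 and 3 under 0, from -1.12 to 0.72. Under 0 were 54.6% of all genes tested in that comparison. The ependymal markers Tmem212, Ccdc153 and Rarres2 lay wholly higher in Cd38-/-, and the matching share of all genes is not given here. None of the 8 was called. Markers of microglia summed over 10 genes to 110 to 138, 144 to 179 and 123 to 208 TPM. All 7 that could be tested in Cd38-/- against Cd38+/+ had a log2 fold change above 0, as had 64.3% of all genes, and P2ry12 alone was called. The test took genes with a mean above 5 TPM in at least 1 compared genotype. P2ry12 (0 to 6.23 TPM in Cd38+/+), C1qa (0 to 5.52 TPM) and the choroid plexus marker Kl (0 TPM) passed only through Cd38-/-, which favoured an upward sign. Endothelial and mural markers summed over 10 genes to 1193 to 3184, 1276 to 1815 and 1208 to 2720 TPM, and neuron markers over 12 genes to 69 to 106, 54 to 86 and 62 to 163 TPM. Markers of oligodendrocyte precursors summed over 5 genes to 80 to 149, 39 to 132 and 37 to 141 TPM. Of the 4 tested in Cd38-/- against Cd38+/+, Neu4 alone was called, and it was lower, beside 1.86% of all genes called lower. It was at 29.73 to 32.15 TPM in Cd38+/+, 5.42 to 13.32 TPM in Cd38+/- and 5.92 to 29.05 TPM in Cd38-/-. The part of the number of detected genes and of these markers in the results on lipid genes was not tested, and in such bulk RNA fewer cells of a type and less RNA per cell cannot be told apart.

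All 35 genes were detected in every library, with 1.61 TPM the lowest value. Scd2, a stearoyl-CoA desaturase of the brain, had the highest mean over all libraries at 1485 TPM, followed by the delta-6 desaturase Fads2 (986 TPM), the sterol C4-methyl oxidase Msmo1 (670 TPM) and the transcription factor Srebf1 (552 TPM). Acacb, the acetyl-CoA carboxylase of the mitochondrial surface, was lowest at 10.9 TPM. Cd38+/- had the highest mean TPM of the 3 genotypes for 27 of the 35 genes, Cd38+/+ for 7 and Cd38-/- for 1. The lowest mean was that of Cd38+/+ for 23 genes, of Cd38-/- for 11 and of Cd38+/- for 1. The map of deviations shows this order and the scatter around it. The order was not counted over all genes. Of all genes tested, 64.4% had a log2 fold change above 0 in Cd38+/- against Cd38+/+. In Cd38-/- against Cd38+/-, 54.6% were under 0.

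**Figure D1:**
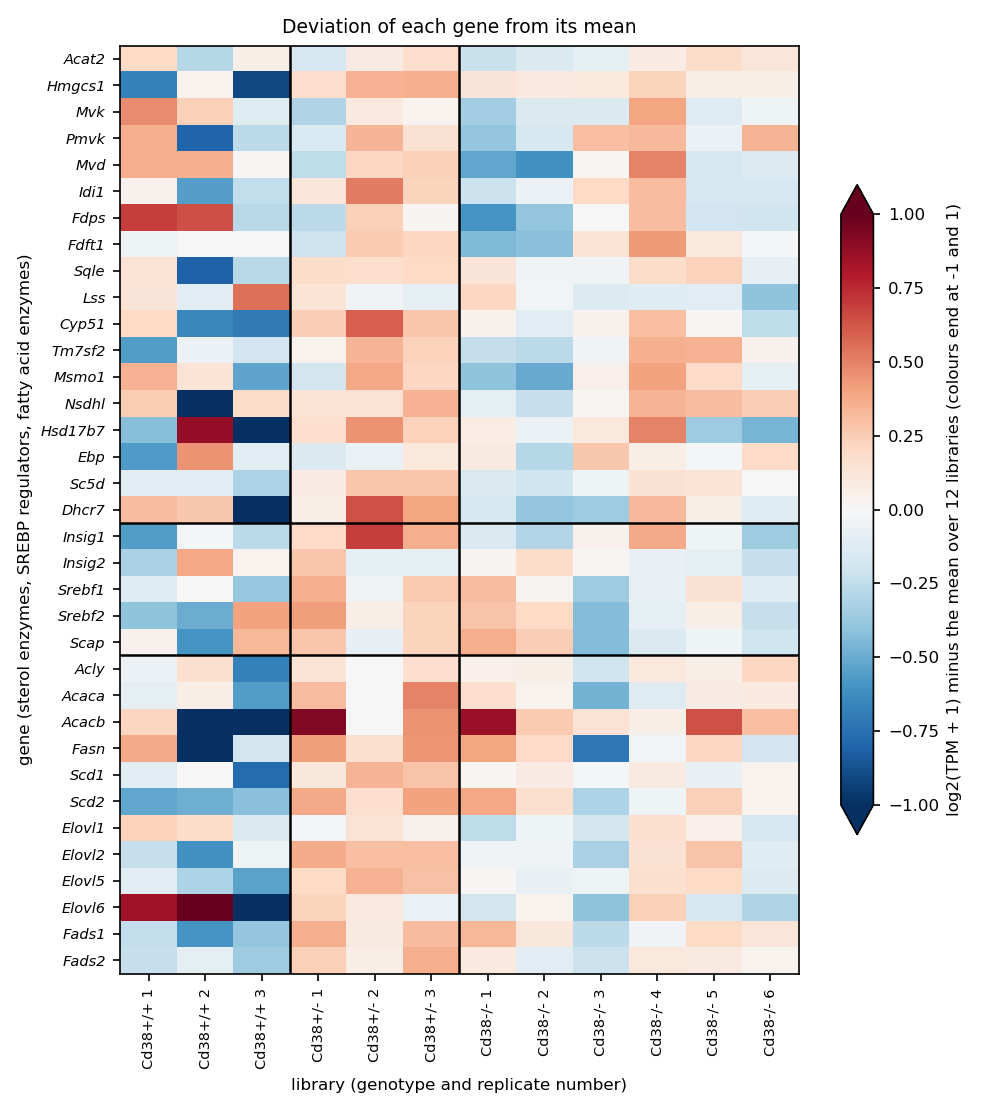
Deviation of log2(TPM + 1) of each of the 35 genes (rows) in each of the 12 libraries (columns) from the gene's mean over the 12 libraries, with colours ending at -1 and 1. Most rows are red in the 3 Cd38+/- columns, and the Cd38+/+ columns hold the strongest colours of both signs.

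The first comparison asked which lipid synthesis genes differed when Cd38 was absent. Of 35 genes, 4 rose in Cd38-/- against Cd38+/+ and none fell, by the limma test and the thresholds given above for the marker genes. That is 11.4% of the genes, against 8.28% of all 11722 genes tested, of which 6.42% were upward and 1.86% downward. The genes that rose were Hmgcs1 among the sterol enzymes and Scd2, Fads1 and Acacb among the fatty acid enzymes. No SREBP regulator was called. Before adjustment, 6 of the 35 had a limma p under 0.05, 5 of them higher and 1 lower in Cd38-/-, against 23.6% of all genes tested (17.6% higher and 5.99% lower). The log2 fold change was above 0 in 25 of the 35 and in 64.3% of all genes.

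Hmgcs1 (chr13:119690379-119708260, plus strand, GENCODE vM21 on GRCm38) makes HMG-CoA, an early intermediate on the way to mevalonate. It was at 103.52, 169.76 and 87.96 TPM in Cd38+/+ and at 172.86 to 193.97 TPM (median 178.2) in Cd38-/-. Every Cd38-/- library lay above every Cd38+/+ library, although Cd38+/+ replicate 2 was close to the lowest of them. The log2 fold change was 0.63 ± 0.17 (SE), with q = 0.0379. Non-overlap in the upward direction was found for 2 of the 35 genes, Hmgcs1 and Scd2, and for 8.21% of all genes tested.

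Scd2 (chr19:44293674-44306864) introduces the first double bond into saturated acyl chains. Its relative Scd1 lies nearby (chr19:44394455-44407879). It was at 1009.63, 1032.37 and 1082.56 TPM in Cd38+/+ and at 1168.97 to 1889.94 TPM (median 1552) in Cd38-/-. The 3 Cd38+/+ libraries were close together and below all 6 Cd38-/- libraries, which were widely spread. On the log2 scale the fold change was 0.55 ± 0.14, with q = 0.0326.

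Fads1 (chr19:10182888-10196877), the delta-5 desaturase of polyunsaturated fatty acid synthesis, also has its relative Fads2 nearby (chr19:10062765-10101746). It was at 352.59, 278.13 and 319.19 TPM in Cd38+/+ and at 348.92 to 527.42 TPM (median 453) in Cd38-/-. A single Cd38-/- library, replicate 3, lay just under the highest Cd38+/+ library. The log2 fold change was 0.49 ± 0.14, with q = 0.0408.

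Acacb (chr5:114146535-114250761, on the chromosome of Cd38, as are Mvk, Cyp51 and Insig1) makes the malonyl-CoA that restrains fatty acid entry into mitochondria. It was at 10.89, 1.61 and 1.82 TPM in Cd38+/+ and at 9.71 to 17.71 TPM (median 11.5) in Cd38-/-. A pair of Cd38+/+ libraries was near the bottom of the scale and the third was within the range of Cd38-/-. The log2 fold change was 1.59 ± 0.46, with q = 0.0427. Its mean in Cd38+/+, 4.77 TPM, was under the minimum of 5, so Acacb entered the test only through the genotype in which it was high. The other 34 genes exceeded the minimum in all 3 genotypes.

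These 4 calls were not stable to the libraries used. With Cd38-/- replicate 1, 2, 5 or 6 left out, 0 of the 35 genes were called. Without Cd38-/- replicate 3 or 4 the count was 2, and without Cd38+/+ replicate 1, 2 or 3 it was 6, 3 and 6. The count over all genes tested moved as well, from 970 to 112, 74, 93 and 154 without Cd38-/- replicate 1, 2, 5 or 6. Without Cd38-/- replicate 3 or 4 it was 573 and 798, and without Cd38+/+ replicate 1, 2 or 3 it was 1829, 1931 and 3119. Benjamini-Hochberg adjustment in place of the q-value also left 0 of the 35 called, and 326 of all genes. Each fit gave its 2 genotypes a shared spread, while the median SD of all expressed genes was 0.49 in Cd38+/+ and 0.23 in Cd38-/-. Because the smaller group varied more, the SEs and q-values of this comparison can be too small.

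The medians put the 3 lists beside all genes tested, whose median log2 fold change was 0.15. The median was 0.14 for the sterol enzymes, 0.13 for the regulators and 0.28 for the fatty acid enzymes. With median-ratio scaling of the libraries, the median of all genes fell to 0.03 and those of the lists to 0.02, 0.01 and 0.15. The sterol enzymes ranged from -0.53 for Fdps to 0.63 for Hmgcs1. Fdps makes farnesyl diphosphate, the branch point to sterols, dolichol and prenyl groups, and was at 287.8, 278.17 and 146.58 TPM in Cd38+/+ against 117.7 to 219.77 TPM (median 155) in Cd38-/-. The third Cd38+/+ library lay within the range of Cd38-/- and the other two above it (q = 0.107). Without Cd38+/+ replicate 3, a run that called 3119 of 11779 genes, Fdps was called lower, with a log2 fold change of -0.85. No other alternative called Fdps. The fatty acid elongase Elovl6 was also called lower without that library, at -1.09. Its Cd38+/+ values were 32.84, 39.17 and 6.2 TPM, of which 6.2 TPM lay below and the others above every Cd38-/- library (13.32 to 21.26 TPM, median 15.7).

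**Figure D2:**
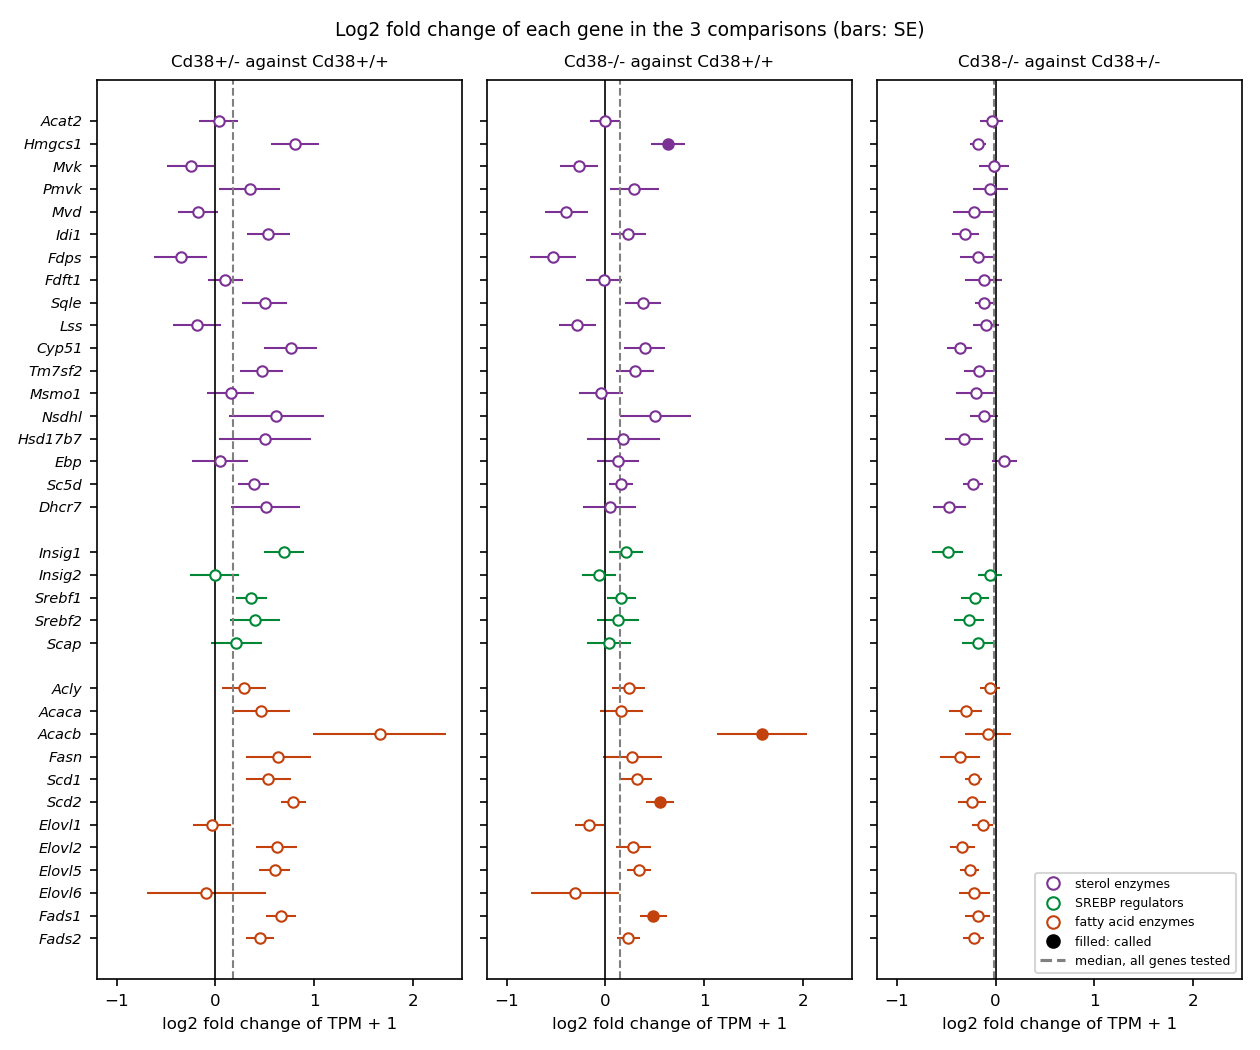
Log2 fold change of TPM + 1 (points) with its SE (bars) for the 35 genes in the 3 comparisons, coloured by list, filled where called, with the median of all genes tested as a dashed line. The 4 filled points all stand in Cd38-/- against Cd38+/+, and 34 of 35 points stand left of 0 in Cd38-/- against Cd38+/-.

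Promoter windows of GRCm38.p6 from RefSeq, from 250 bases before to 50 after a transcript start, were held for 29 of the 35 genes. There was none for Fdps, Fdft1, Sqle, Scd1, Scd2 and Fads1. They were searched on either strand for a form of the sterol regulatory element, TCACNCCAC, and for the CCAAT box, CCAAT, which does not overlap it. The element was found in 1.24% of all windows and, among the 29 genes, in Hmgcs1 alone, from 137 to 129 bases before the start. CCAAT was found in 24 of the 39 windows of these genes (61.5%), beside 37.4% of all windows. By gene, 23 of the 29 had it in at least 1 window, beside 11096 of 27025 genes in all. The 23 included 14 of 15 sterol enzymes, 4 of 5 regulators and 5 of 9 fatty acid enzymes. The windows of the called genes that have one are shown first, with Insig1 and Elovl5, described below, for comparison. Capitals mark the matches (ATTGG is CCAAT on the other strand). The Acacb window belongs to a start inside the annotated gene. A match describes letters and not a bound site.
Hmgcs1, chr13:119690101-119690400, plus strand: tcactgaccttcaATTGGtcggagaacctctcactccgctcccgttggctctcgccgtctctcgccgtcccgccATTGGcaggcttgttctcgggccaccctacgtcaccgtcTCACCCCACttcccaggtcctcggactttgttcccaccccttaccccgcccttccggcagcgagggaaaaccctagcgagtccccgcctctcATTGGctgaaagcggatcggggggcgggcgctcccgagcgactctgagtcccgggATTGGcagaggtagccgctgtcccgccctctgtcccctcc
Acacb, chr5:114165268-114165567, plus strand: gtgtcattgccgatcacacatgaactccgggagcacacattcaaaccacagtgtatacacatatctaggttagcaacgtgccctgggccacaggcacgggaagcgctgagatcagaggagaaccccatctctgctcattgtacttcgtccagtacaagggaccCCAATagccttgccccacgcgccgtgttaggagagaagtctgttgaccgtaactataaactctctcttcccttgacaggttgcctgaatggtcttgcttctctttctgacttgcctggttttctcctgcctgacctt
Insig1, chr5:28071162-28071461, plus strand: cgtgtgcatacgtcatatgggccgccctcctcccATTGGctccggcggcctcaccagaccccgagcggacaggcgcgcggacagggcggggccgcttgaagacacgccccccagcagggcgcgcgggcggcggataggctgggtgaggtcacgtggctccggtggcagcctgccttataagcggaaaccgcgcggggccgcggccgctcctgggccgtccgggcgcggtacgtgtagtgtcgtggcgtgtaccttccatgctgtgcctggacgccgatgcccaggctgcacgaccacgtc
Elovl5, chr9:77917115-77917414, plus strand: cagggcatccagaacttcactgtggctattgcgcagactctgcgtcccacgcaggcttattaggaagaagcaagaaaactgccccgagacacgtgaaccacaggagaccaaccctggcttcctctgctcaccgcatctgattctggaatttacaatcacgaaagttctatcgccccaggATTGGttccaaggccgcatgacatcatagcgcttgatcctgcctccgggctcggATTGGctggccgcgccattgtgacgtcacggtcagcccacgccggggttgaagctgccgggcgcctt

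The second comparison set Cd38+/- against the same 3 Cd38+/+ libraries. No gene was called among 11763 tested (0%), the lowest q being 0.158, and none of the 35 lipid genes was. Before adjustment, 13 of the 35 had a limma p under 0.05, all with the higher level in Cd38+/-, which is 37.1% against 13.5% of all genes tested (9.5% in the upward direction). Over all genes, 1586 had such a p, and Benjamini-Hochberg adjustment called 0. In 13 of the 35 the Cd38+/- libraries all lay above the Cd38+/+ libraries, against 15.5% of all genes tested. A log2 fold change above 0 was found in 28 of the 35 and in 64.4% of all genes. The median log2 fold change was 0.37 for the sterol enzymes, 0.36 for the regulators and 0.57 for the fatty acid enzymes, beside 0.18 for all genes. Without Cd38+/+ replicate 3 the median of the sterol enzymes was 0.09. The 10 astrocyte markers moved in a similar way, with a median of 0.39 and 9 of them above 0. In 4 of the 10 the Cd38+/- libraries all lay above the Cd38+/+ libraries, and 4 were higher at an unadjusted limma p under 0.05. The part of the astrocyte markers in the values of the lipid genes was not tested.

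Among the sterol enzymes, Hmgcs1 was at 187.44, 211.25 and 212.14 TPM in Cd38+/-, above all Cd38+/+ libraries (log2 fold change 0.81 ± 0.24, q = 0.177). Idi1, which isomerizes the isoprene unit, was at 80.72, 52.96 and 65.77 TPM in Cd38+/+ and 84.9, 112.67 and 91.37 TPM in Cd38+/- (0.54 ± 0.22, q = 0.224). Its groups did not overlap, and the nearest libraries differed by little.

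Sqle, the squalene epoxidase, a control point of sterol synthesis, was at 220.29, 113.18 and 164.12 TPM in Cd38+/+ and 225.9, 225.65 and 228.5 TPM in Cd38+/- (log2 fold change 0.50 ± 0.23, q = 0.241). The Cd38+/- libraries were nearly equal, and Cd38+/+ replicate 1 almost reached them. Cyp51, which demethylates lanosterol, was at 81.74, 44.94 and 43.14 TPM in Cd38+/+ and 84.8, 108.12 and 86.36 TPM in Cd38+/- (0.76 ± 0.27, q = 0.204). Again Cd38+/+ replicate 1 lay next to the Cd38+/- libraries. Reads of Cyp51 may be shared with Akap9, which overlaps it on the other strand, since the kit does not mark strand.

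Tm7sf2, a sterol C14-reductase, was at 39.3, 55.84 and 50.91 TPM in Cd38+/+ and 59.74, 73.81 and 68.32 TPM in Cd38+/- (log2 fold change 0.47 ± 0.22, q = 0.245). Sc5d, the lathosterol desaturase, was at 134.12, 134.71 and 116.06 TPM in Cd38+/+ and 153.61, 175.28 and 175.82 TPM in Cd38+/- (0.39 ± 0.16, q = 0.222). Neither gene overlapped between these genotypes, and Tm7sf2 shares part of its locus with Vps51 on the same strand.

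Insig1, which retains the SREBP escort, was the regulator without overlap. It was at 98.47, 144.23 and 121.17 TPM in Cd38+/+ and 166.43, 235.16 and 187.65 TPM in Cd38+/- (log2 fold change 0.69 ± 0.20, q = 0.177). Srebf1, which drives fatty acid genes in most tissues, was at 498.91, 542.64 and 419.43 TPM in Cd38+/+ and 695.87, 533.27 and 653.1 TPM in Cd38+/- (0.36 ± 0.16, q = 0.234). Its groups overlapped through Cd38+/- replicate 2.

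The fatty acid enzymes held 6 of the 13 genes without overlap. Scd2 was at 1884.26, 1624.55 and 1912.86 TPM in Cd38+/- (log2 fold change against Cd38+/+ 0.79 ± 0.13, q = 0.158), and Fads1 at 538.26, 444.65 and 522.52 TPM (0.66 ± 0.15, q = 0.176). Both were well above their Cd38+/+ libraries. Acacb was at 18.49, 9.25 and 13.01 TPM (1.67 ± 0.67, q = 0.222), with 1 Cd38+/- library inside the range of Cd38+/+.

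Fads2 was at 832.75, 910.76 and 761.34 TPM in Cd38+/+ and 1154.31, 1023.17 and 1258.94 TPM in Cd38+/- (log2 fold change 0.45 ± 0.14, q = 0.182). Elovl5, which elongates polyunsaturated fatty acids, was at 269.87, 235.25 and 201.6 TPM in Cd38+/+ and 336.11, 372.42 and 358.22 TPM in Cd38+/- (0.60 ± 0.15, q = 0.176). Both had clear gaps between the genotypes. Elovl2, an elongase for very long polyunsaturated chains, was at 55.44, 42.59 and 63.07 TPM in Cd38+/+ and 84.64, 80.84 and 80.77 TPM in Cd38+/- (0.62 ± 0.21, q = 0.193). Scd1, a close relative of Scd2, was at 117.15, 127.39 and 74.01 TPM in Cd38+/+ and 137.1, 160.51 and 155.18 TPM in Cd38+/- (0.54 ± 0.23, q = 0.226). The Cd38+/- libraries of both genes were closer together than those of Cd38+/+.

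All 12 libraries were also put in 1 fit, which gives the 3 genotypes a shared spread. For Cd38+/- against Cd38+/+ it called 11 of the 35 genes, and 1464 of all 11763 genes tested. The 11 were Hmgcs1, Cyp51, Sc5d, Insig1, Acacb, Scd1, Scd2, Elovl2, Elovl5, Fads1 and Fads2. The spread was not shared, as the median SD over all expressed genes shows: 0.49 (Cd38+/+), 0.20 (Cd38+/-) and 0.23 (Cd38-/-). The SEs and q-values of that fit can therefore be too small for this comparison. None of the 11 was called in the main fit, which held only the 2 compared genotypes. Among the alternative fits of those 2 genotypes, Scd2 and Fads1 were called with no filter on low values. Scd2 was also called with library quality weights.

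**Figure D3:**
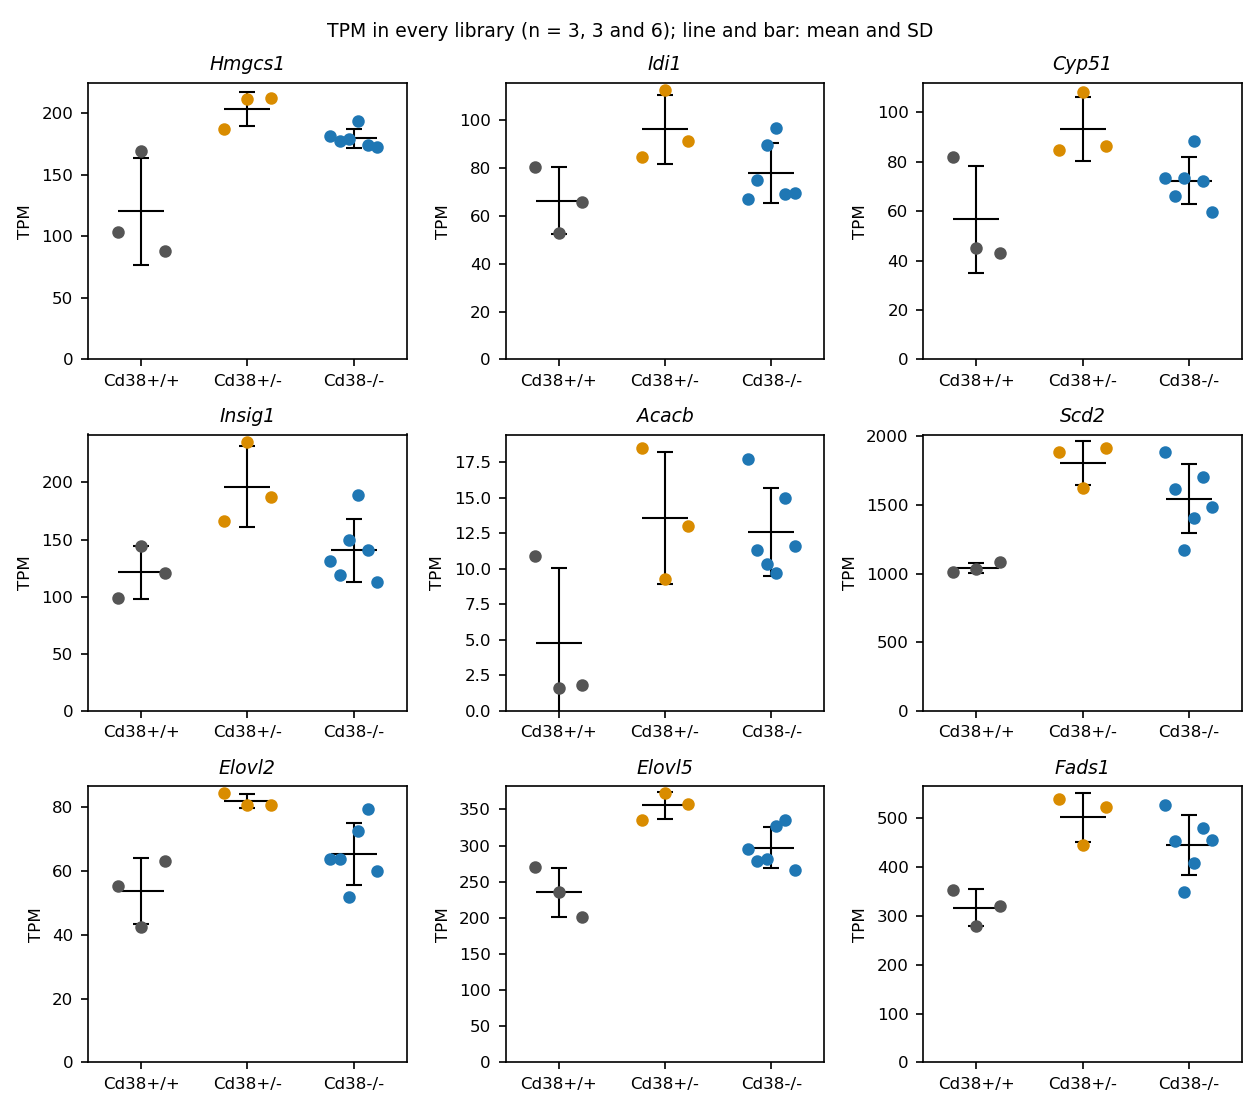
TPM of 9 genes in every library (points) by genotype, with the mean and SD (line and bar, n = 3, 3 and 6), each axis starting at 0, where the bar of Acacb in Cd38+/+ ends. In Hmgcs1 and Scd2 all points of both mutant genotypes lie above Cd38+/+, and in Elovl2 and Elovl5 the Cd38-/- points lie below all Cd38+/- points.

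The third comparison, Cd38-/- against Cd38+/-, set aside the Cd38+/+ libraries. Of the 35 genes, 34 had a log2 fold change under 0, which held for 54.6% of all 11563 genes tested. Ebp, the sterol isomerase, was the exception at 0.09 ± 0.13. The count was 31 to 34 in every alternative run, including those that left out a library or took out the dependence of TPM on transcript length and GC. The sizes were small, with a median of -0.17 for the sterol enzymes, -0.20 for the regulators and -0.22 for the fatty acid enzymes, beside -0.02 for all genes. None of the 35 was called, against 0.0346% of all genes tested (4 genes). The 35 genes share regulators and libraries and are not independent observations. The direction was not particular to the 35. It was shared by 9 of the 10 astrocyte markers (median -0.26). Among related lists, all 11 tested genes of sterol storage and turnover were under 0 (median -0.27). So were 15 of 18 other fatty acid synthesis genes, 8 of 10 genes of SREBP processing and degradation, and 5 of 10 other sterol and isoprenoid genes. The summed astrocyte markers were also mostly higher in Cd38+/- (16212 to 18338 TPM) than in Cd38-/- (12126 to 16399 TPM). The part of these markers in this result was not tested.

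A limma p under 0.05 before adjustment was found for 8 of the 35 (22.9%, against 11.2% of all genes tested and 5% in the downward direction), all lower in Cd38-/-. They were Hmgcs1, Cyp51, Sc5d, Dhcr7, Insig1, Scd1, Elovl2 and Elovl5. The lowest log2 fold change was that of Insig1, at -0.49 ± 0.16 (q = 0.233), with 113.16 to 189.35 TPM (median 136) in Cd38-/-. Cd38-/- replicate 4 alone lay within the range of Cd38+/-. Dhcr7, the last reductase before cholesterol, was at -0.47 ± 0.17 (q = 0.256), with 142.35, 213.19 and 180.11 TPM in Cd38+/- and 104.7 to 171.46 TPM (median 124) in Cd38-/-. In Cd38+/+ it was at 169.69, 165.51 and 66.59 TPM, a range that covered most other libraries.

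The Cd38-/- libraries lay wholly below the Cd38+/- libraries in 3 of the 35 genes, against 2.88% of all genes tested. Elovl5 was at 266.32 to 335.21 TPM (median 289) in Cd38-/-, and its log2 fold change was -0.26 ± 0.10 (q = 0.262). Elovl2 was at 51.91 to 79.64 TPM (median 63.9), with -0.34 ± 0.13 (q = 0.269). Scd1 was at 120.74 to 134.74 TPM (median 129), with -0.22 ± 0.08 (q = 0.272). In each of the 3 the highest Cd38-/- library nearly touched the lowest Cd38+/- library.

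In Cd38-/-, Idi1 was at 67.05 to 96.98 TPM (median 72.4) and Cyp51 at 59.65 to 88.19 TPM (median 72.8), with log2 fold changes against Cd38+/- of -0.30 ± 0.14 and -0.36 ± 0.13. Sqle was at 188.64 to 233.74 TPM (median 206), Tm7sf2 at 48.24 to 74.66 TPM (median 58.3) and Sc5d at 126.02 to 160.78 TPM (median 142). Fads2 was at 840.25 to 1052.38 TPM (median 1021). All of them overlapped with Cd38+/-, though the lower end of each range was in Cd38-/-.

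The remaining 21 genes were called in no comparison and overlapped between all genotypes. In Cd38-/- against Cd38+/+ they lay between -0.53 (Fdps) and 0.51 (Nsdhl) on the log2 scale. Nsdhl, which removes the C4 carboxyl group of sterols, was at 11.22 TPM in Cd38+/+ replicate 2 and at 31.93 TPM or more in every other library. The thiolase Acat2 and the squalene synthase Fdft1 had nearly equal means in all genotypes, at 96.3 to 99 TPM and at 151 to 164 TPM. Reads of Acat2 may be split with its near-identical paralog Acat3, and Fdft1 overlaps Ctsb on the other strand. Of the early enzymes, Mvk was at 44.61 to 67.9 TPM in Cd38+/+, and the log2 fold change in Cd38-/- was -0.27 ± 0.19 for Mvk and -0.40 ± 0.22 for Mvd. The lanosterol synthase Lss was at -0.28 ± 0.19. The 4 regulators other than Insig1 lay between -0.06 and 0.16. The carboxylase Acaca, the citrate lyase Acly and the synthase Fasn, which start fatty acid synthesis, lay between 0.16 and 0.27, with SEs of 0.17 to 0.30.

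A mean of log2(TPM + 1) over the genes of a list gave each library a score. The sterol enzymes scored 6.44 ± 0.18 (SD, n = 3) in Cd38+/+, 6.70 ± 0.15 (n = 3) in Cd38+/- and 6.53 ± 0.18 (n = 6) in Cd38-/-, with overlap between all genotypes. The regulator score was 6.95 ± 0.15, 7.28 ± 0.10 and 7.04 ± 0.16. The fatty acid score was 6.62 ± 0.31, 7.17 ± 0.09 and 6.95 ± 0.15, and its Cd38+/- libraries (7.07 to 7.23) lay above Cd38+/+ (6.31 to 6.93) and overlapped slightly with Cd38-/- (6.67 to 7.08). Over all expressed genes the same mean was 4.85 ± 0.05, 5.09 ± 0.13 and 5.08 ± 0.11. The 35 genes had a median SD between Cd38+/+ libraries of 0.35, beside 0.49 for all expressed genes. Cd38+/- libraries gave 0.16 beside 0.20, and Cd38-/- libraries 0.23 beside 0.23.

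**Figure D4:**
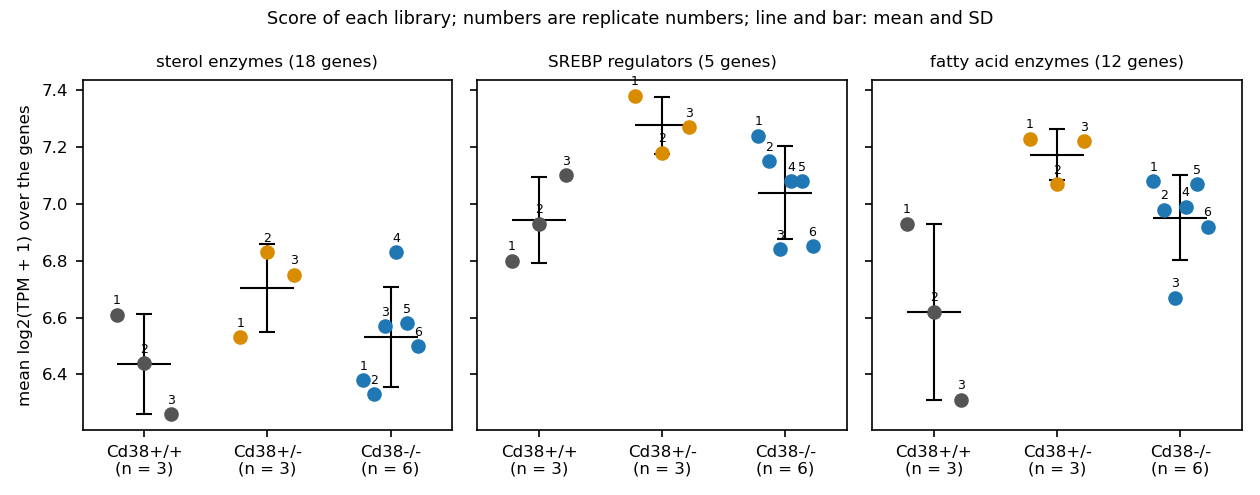
Mean log2(TPM + 1) of the sterol enzymes, the SREBP regulators and the fatty acid enzymes in each library (points, labelled by replicate number) with the mean and SD of each genotype. The Cd38+/- libraries lead in the fatty acid score, while in the sterol score Cd38-/- replicate 4 (6.83) reaches the highest Cd38+/- library.

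With TPM as deposited, the 2 branches had their highest and lowest values mostly in different Cd38-/- libraries. Replicate 4 held the highest of the 6 values for 13 of the 18 sterol enzymes, and replicates 1 and 2 held the lowest for 6 and 7 of them. Replicate 3 held the lowest value for 8 of the 12 fatty acid enzymes and 3 of the 5 regulators, while replicate 1 held the highest for 5 and 3. The sterol score was 6.38 in replicate 1 and 6.83 in replicate 4, and the fatty acid score was 7.08 and 6.99 in the same libraries. With the dependence on transcript length and GC content taken out, replicate 4 was the highest of the 6 for both scores, at 6.72 and 7.27. No test was made of how the branches vary together. In Cd38+/+, replicate 3 was lowest for 9 of 18 sterol and 7 of 12 fatty acid enzymes.

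The difference between the sterol and fatty acid scores moved with how well long transcripts were represented. That representation was measured as the mean log2(TPM + 1) of the expressed genes in the upper quartile of transcript length minus that of the lower quartile. In Cd38-/- replicates 1 to 6 the score difference was -0.70, -0.65, -0.10, -0.16, -0.50 and -0.42, and the length measure was -0.80, -1.06, -1.56, -1.40, -1.02 and -1.32. In Cd38+/- replicates 1 to 3 the score difference was -0.70, -0.24 and -0.47, and the length measure was -0.72, -1.23 and -1.04. In both mutant genotypes, libraries with more signal from long transcripts had the lower sterol score relative to the fatty acid score, with Cd38-/- replicates 2 and 5 out of this order. In Cd38+/+ the score difference was -0.31, -0.18 and -0.05 at length measures of -1.53, -1.32 and -1.54. The longest annotated transcript had a median of 2998 bases among the sterol enzymes, 4227 among the regulators and 4629 among the fatty acid enzymes. With the dependence on length and GC removed library by library, the score difference ran from -0.95 to -0.56 in Cd38-/-, from -0.89 to -0.59 in Cd38+/- and from -0.74 to -0.45 in Cd38+/+. The same removal left median log2 fold changes in Cd38+/- against Cd38+/+ of 0.30 for the sterol and 0.44 for the fatty acid enzymes, beside 0.19 for all genes.

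**Figure D5:**
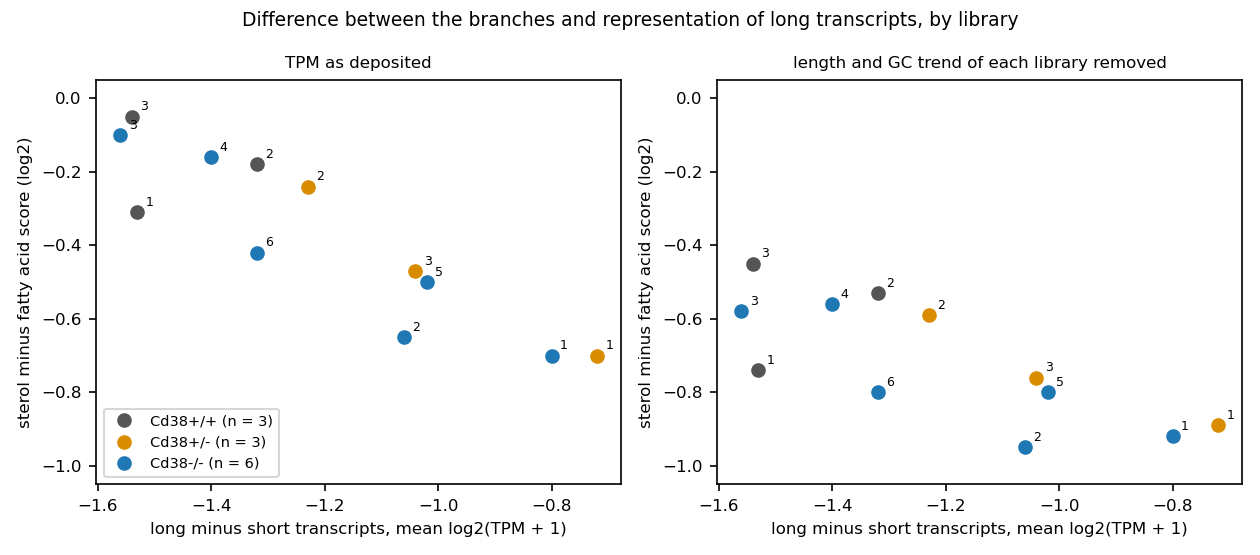
Sterol minus fatty acid score (vertical axis, log2) against the long minus short transcript measure (horizontal axis, log2) for the 12 libraries, labelled by replicate number, with TPM as deposited and with the length and GC trend removed. The score difference runs from -0.05 to -0.70 on the left panel, and mutant libraries with the higher length measure mostly lie lower on both panels.

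Related genes outside the 35 were counted by list. In Cd38-/- against Cd38+/+, 2 of 10 other sterol and isoprenoid genes rose, 2 of 11 genes of SREBP processing and degradation, 0 of 12 genes of sterol storage and turnover, and 0 of 18 other genes of fatty acid synthesis, and none of these fell. Of all genes tested in that comparison, 8.28% were called and 6.42% were called higher. The medians of the log2 fold changes of the 4 lists were 0.09, 0.47, 0.14 and 0.10, beside 0.15 for all genes. None was called in the other comparisons.

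Ggps1, which makes the geranylgeranyl group, was at 19.13, 33.23 and 33.87 TPM in Cd38+/+ and 43.45 to 55.8 TPM (median 50.8) in Cd38-/- (log2 fold change 0.83 ± 0.20, q = 0.028). Dhdds, a subunit of the enzyme for dolichol, was at 26.25, 28.86 and 38.73 TPM against 47.58 to 56.08 TPM (median 51) (0.71 ± 0.16, q = 0.0239). The 2 genes draw on the isoprenoid pool beside the sterol path, and both were without overlap. In Cd38+/- they were at 41.6 to 53.88 TPM and 44.51 to 52.93 TPM, again above all Cd38+/+ libraries.

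Erlin2, a membrane protein of the endoplasmic reticulum that takes part in protein degradation there, was at 63.62, 40.95 and 45.28 TPM in Cd38+/+ and 63.23 to 98.79 TPM (median 78.4) in Cd38-/- (log2 fold change 0.66 ± 0.19, q = 0.0436). Mbtps2, the protease that releases SREBPs in the membrane, was at 1.39, 1.11 and 0.07 TPM against 3.65 to 7.11 TPM (median 5.52) (1.87 ± 0.42, q = 0.0231). Mbtps2 was without overlap and passed the minimum of 5 TPM only through Cd38-/-, while the lowest Cd38-/- library of Erlin2 lay just under the highest Cd38+/+ library.

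The other genes with the largest differences in their lists did not pass the test. Prkaa1, a catalytic subunit of AMP-activated kinase, was at 0.83 ± 0.33 (q = 0.0867). The side-chain hydroxylase Ch25h was at 13.03, 15.52 and 0 TPM in Cd38+/+ and at 1.5 TPM or less in all 9 mutant libraries (-1.84 ± 0.81, q = 0.109). Mylip, a ligase for the LDL receptor, was at 1.32 ± 0.59 (q = 0.114), the desaturase Scd3 at 1.82 ± 0.62 (q = 0.0635) and the carbohydrate-responsive factor Mlxipl at 1.16 ± 0.60 (q = 0.147). Ch25h, Mylip, Scd3 and Mlxipl each had a Cd38+/+ library listed at 0. Mylip, Scd3 and Mlxipl passed the minimum of 5 TPM only through Cd38-/-, in which they were high. Their Cd38+/+ means were 4.91, 0.933 and 4.2 TPM. Ch25h passed it only through Cd38+/+, so the sign of each of these differences was favoured by the filter.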

How the data were processed

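Astrocyte RNA from 12 libraries was sequenced as paired ends after low-input full-length cDNA synthesis. The labels name polyA RNA and the study's methods rRNA depletion, and which applied is not settled here. The authors trimmed reads with Trim Galore 0.6.4, mapped them to mm10 with STAR 2.7.1a and estimated expression with RSEM 1.2.28, per the submitters' processing notes, and deposited TPM per gene and library, rounded to 2 decimals. DESeq2 1.36.0, which the authors also list, was not used here. Each library sums to 1000000 TPM, so its depth is unknown, the number of libraries limits precision, and no counting interval or floor is given. TPM share a fixed sum, so a change in abundant genes moves all others.

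Genes with a mean above 5 TPM in at least 1 compared genotype were fitted as log2(TPM + 1) with limma 3.58.1 (eBayes with trend, statmod 1.5.0 installed) in R 4.3.3, with only the 2 compared genotypes in a fit. A fold change on this scale understates that of low genes. Storey q-values covered all genes tested, and a call required q under 0.05 together with a fold change of 1.2 or more. The procedure was run on simulated data in which both compared genotypes had the same spread for a gene. Those data cannot show the effect of the unequal spread seen here. The Cd38+/+ libraries serve in 2 of the comparisons and the Cd38+/- libraries in 2, so these are not independent. Libraries of the same replicate number did not regularly resemble each other (correlation of deviations -0.307 to 0.454). With so few libraries, that check cannot exclude pairing or a shared batch. The main fits took the libraries as unpaired.

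Described in full were Cd38 and the members called or without overlap between genotypes. Of other pathway genes, those called and the 2 of largest fold change per list were named. Of the other pathway lists, 2 genes are not reported here. Members and lists were chosen with earlier results of these data known. Transcript lengths came from GENCODE vM21, the promoter windows from RefSeq. Figures used matplotlib 3.10.9 and Python 3.11.15. Alternatives were other pseudocounts, filters, adjustments, scalings, weights, a replicate block and leaving out each library.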

Additional observations from a re-analysis of the deposited data

Results flagged for a closer look

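In 41 checks of the 6 Cd38-/- libraries for a value far from the rest (Cd38, the 35 genes and the scores), 1 value stood apart, where chance gives about 1 in 20. Mvk, the mevalonate kinase, was at 64.15 TPM in Cd38-/- replicate 4 and at 37.92 to 47.27 TPM in the other 5, a gap of 0.644 of the whole range against a critical value of 0.625. That library also had the highest sterol score of its genotype (6.83).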

How the results depend on the processing

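In Cd38-/- against Cd38+/+, the count of the 35 genes called was 4 and became 0 with Benjamini-Hochberg adjustment, library quality weights, the replicate block and the replicate block with the length and GC trend removed, 1 with a log2 fold change of at least 1.2 or with eBayes without the trend, 2 with median-ratio scaling, and 0 to 6 when a library was left out. Over all genes it was 970 and became 2283 with no filter on low values, 326 with Benjamini-Hochberg adjustment, 337 with a log2 fold change of at least 1.2, 1 with weights, 1822 with all 12 libraries in 1 fit, 2 with the replicate block, 2 with the block and the trend removed, and 74 (without Cd38-/- replicate 2) to 3119 (without Cd38+/+ replicate 3) when a library was left out. Of the calls, 77.5% were higher, and 58.6% with median-ratio scaling. When 1 of 9 libraries was left out, Hmgcs1 and Acacb lost their call in 7 cases, Fads1 in 5 and Scd2 in 4. The median of the sterol enzymes was -0.03 with the block and the trend removed, and Sc5d was then at -0.109.

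In Cd38+/- against Cd38+/+, the count among the 35 was 0 and became 2 with no filter, 1 with weights and 11 with all 12 libraries in 1 fit. Over all genes it was 0 and became 663, 30 and 1464 in the same order, 9 without the eBayes trend, 4 with the replicate block, 2 with the block and the trend removed, and 0 to 10 when a library was left out. The median of the sterol enzymes was then 0.091 (without Cd38+/+ replicate 3) to 0.466.

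In Cd38-/- against Cd38+/-, weights gave 17 calls among the 35 and 3120 among all genes. The weights stopped before convergence in both comparisons with Cd38+/-, and Cd38+/- replicate 3 received 42.6 and 49.5. Other counts over all genes, 4 in the fit reported, were 2 with a log2 fold change of at least 1.2, 1 with median-ratio scaling, 2 with the trend removed, 1 with all 12 libraries, 2 with the replicate block, 7 with the block and the trend removed, and 0 to 93 when a library was left out. Acacb changed sign, to 0.113 with the trend removed, 0.136 with the block as well and 0.154 without Cd38+/- replicate 1, the range being -0.309 to 0.154 when a library was left out. Among the 21 genes not given in full, 14, 10 and 8 changed sign in at least 1 alternative in the 3 comparisons. The cause of these changes was not tested. Numbers of libraries are small, the Cd38+/+ libraries list fewer genes above 0 and vary more, and depth is unknown.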
